A study of Drosophila melanogaster with 3 samples.

Results

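The genes described here are 7 transcription factor genes that direct muscle formation and muscle type in the fruit fly Drosophila melanogaster: Mef2, exd, hth, vg, ap, nau and twi. They were chosen by name as known regulators of fly muscle, and all 7 have a row among the 15682 genes listed in the count files. RNA came from 3 samples of 10-day-old males labelled as skeletal muscle, in which RNA interference (RNAi) was directed against the homeodomain transcription factor gene Ptx1, called Pitx in the genotype label. The sample titles name the driver as MhcGal4, so expression of the RNAi construct follows the myosin heavy chain promoter and is meant for muscle cells. All 3 samples carry the same genotype and form the only group analysed here. Control libraries of another series, which the design text names, were not analysed here, so no value below is an effect of the RNAi.

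Fly muscle is built in steps that these genes control. The twist protein (twi) marks the mesoderm of the embryo and the precursors of adult muscle, Mef2 is the MADS-box factor that switches on contractile protein genes as muscle differentiates, and nautilus (nau) is the fly relative of the vertebrate MyoD family. Extradenticle (exd) and homothorax (hth) encode homeodomain proteins that act as a pair, with Hth carrying Exd into the nucleus, and together they specify the fibrillar type of the indirect flight muscles. Vestigial (vg), a partner of the DNA-binding protein Scalloped, and the LIM-homeodomain gene apterous (ap) take part in giving flight muscles their identity, and both are better known for their roles in the wing.

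Libraries 1, 2 and 3 held 35988267, 50794384 and 52675322 gene counts, so library 1 was the least deep. In all of them 9579 genes reached a level of at least 1 CPM (counts per 1000000 gene counts). The pairs of libraries differed by more than counting error, with a chi-square per degree of freedom between 23.2 and 103. No label says whether the samples came from separate pools of flies, so the spread between them may be partly technical. Markers of contractile muscle were abundant, as Mhc at 4492 ± 365 CPM, Mf at 4406 ± 216 CPM and Mlc2 at 2970 ± 99.2 CPM show (SD, n = 3, as for every mean below). Markers of other tissues were present as well. The 10 neuron and glia markers summed to between 2374 and 2892 CPM per library, the 5 gut markers to between 7861 and 9421 CPM, the 5 fat body markers to between 8567 and 9070 CPM, the 7 blood cell markers to between 371.9 and 440.2 CPM and the 7 epidermis, tendon and trachea markers to between 378.7 and 529.9 CPM, with no marker of these lists at a count of 0 in all libraries. Genes that mark other tissues were thus counted beside those of muscle, and the cell type behind the count of a factor such as exd, hth or ap, which other tissues also use, was not tested. In such bulk samples, fewer cells of a type and less RNA per cell cannot be told apart.

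Of the 7 genes, 6 were detected, meaning that they reached 1 CPM in each library, and twi was not. CPM values were not divided by transcript length, because no transcript lengths were used here, so the order of CPM values across genes does not rank numbers of transcripts. The highest means of a list only choose which of its genes are named, and a ratio of counts of a pair of genes is read only across libraries.

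Mef2, the general activator of muscle differentiation genes, was counted 6747, 10437 and 10405 times in libraries 1, 2 and 3. These counts gave 187.5, 205.5 and 197.5 CPM (mean 196.8 ± 9.02 CPM). The libraries lay close together, with library 1 lowest and library 2 highest. The Mef2 level of library 2 was 1.10 times that of library 1, with an exact 95% interval of 1.06 to 1.13 that covers counting error only, as do all intervals below. The difference was thus larger than counting error, although small.

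The exd gene stood at 141.2, 171.5 and 168.5 CPM in libraries 1, 2 and 3 (mean 160.4 ± 16.7 CPM). Library 1 was low and the other libraries were nearly equal. The level in library 2 was 1.21 times that in library 1 (95% interval 1.17 to 1.26) and 1.02 times that in library 3 (95% interval 0.988 to 1.05). For exd the spread therefore lay between library 1 and the rest.

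The partner gene hth, whose protein brings Exd into the nucleus, had the widest relative range of the 6 detected members. It stood at 116.6, 168.6 and 144.5 CPM in libraries 1, 2 and 3 (mean 143.2 ± 26.0 CPM). All 3 libraries were apart from each other beyond counting error. The level in library 2 was 1.45 times that in library 1 (95% interval 1.39 to 1.50) and 1.17 times that in library 3 (95% interval 1.13 to 1.203). The coefficient of variation of hth was 18.2%, where counting error alone gives 1.23%. A microRNA gene, mir-4944, and the antisense RNA gene CR44018 lie within or across the hth span in the RefSeq annotation. Only mir-4944 was matched to a row, with 1, 0 and 0 counts. The antisense gene was not matched, and since it is not known whether the counting used strand, reads of hth and of its antisense gene cannot be told apart.

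**Figure D1:**
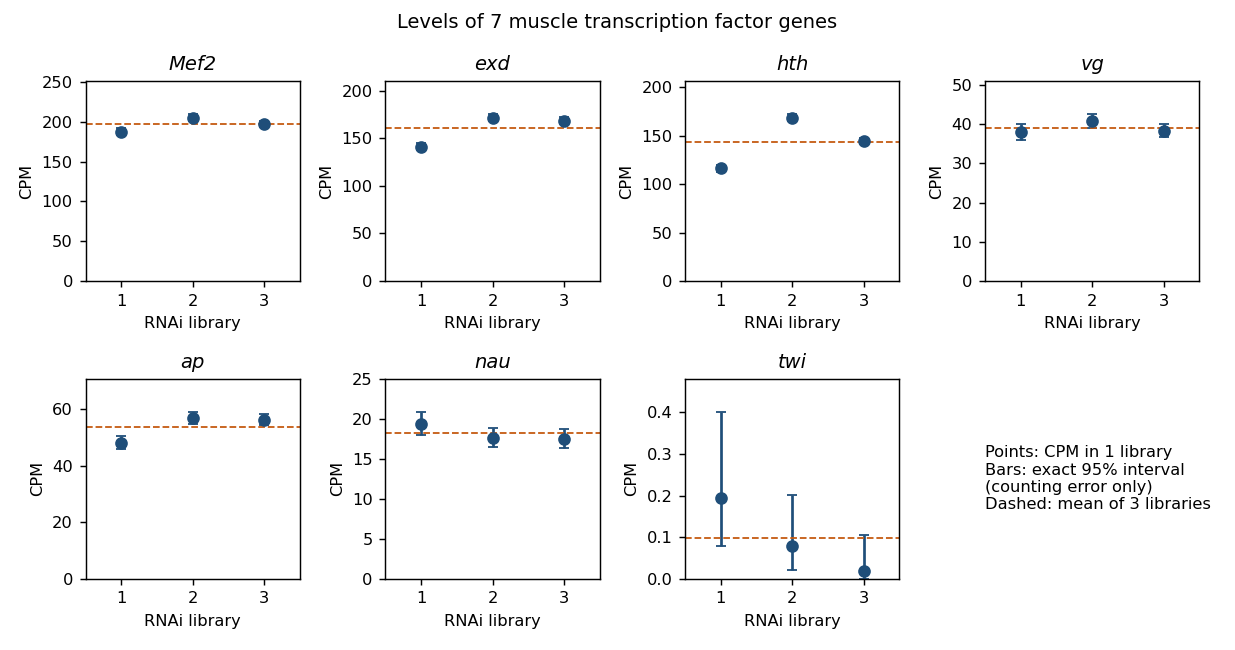
Levels of the 7 genes in each RNAi library, in CPM on linear axes that start at 0 and differ between panels; points are single libraries, bars are exact 95% intervals for counting error and dashed lines are means of 3 libraries. The points of hth run from 116.6 to 168.6 CPM, those of vg stay between 37.9 and 40.7 CPM, and those of twi lie below 0.2 CPM.

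The flight muscle gene vg had the smallest relative spread of the 6 detected members. It stood at 37.9, 40.7 and 38.3 CPM in libraries 1, 2 and 3 (mean 39.0 ± 1.50 CPM). Its coefficient of variation was 3.85%, against 2.38% from counting error alone. Library 2 exceeded library 1 by a factor of 1.07 (95% interval 1.002 to 1.15), and the intervals of the other library pairs included 1.

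The LIM-homeodomain gene ap stood at 48.2, 56.8 and 56.3 CPM in libraries 1, 2 and 3 (mean 53.8 ± 4.86 CPM). As for exd, library 1 was low and the other libraries were nearly equal. The level in library 2 was 1.18 times that in library 1 (95% interval 1.11 to 1.25) and 1.01 times that in library 3 (95% interval 0.959 to 1.06).

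The MyoD relative nau stood at 19.4, 17.7 and 17.6 CPM in libraries 1, 2 and 3 (mean 18.2 ± 1.03 CPM). It was the 1 detected member with its highest value in library 1. None of its library pairs differed beyond counting error, and library 2 was at 0.911 times library 1 (95% interval 0.824 to 1.01). Library 3 was at 0.905 times library 1, with a 95% interval of 0.820 to 1.0003 that only just included 1. Its span overlaps that of CG10300, which had 222, 189 and 238 counts, so some nau reads may have been set aside as ambiguous or shared.

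The mesoderm gene twi was close to the limit of detection. It had 7, 4 and 1 counts in libraries 1, 2 and 3, or 0.195, 0.0787 and 0.0190 CPM. A count of 0 would have allowed up to 0.0834, 0.0591 and 0.0570 CPM, taken as 3 counts of each total, and the exact 95% intervals of the measured values were 0.0782 to 0.401, 0.0215 to 0.202 and 0.000481 to 0.106 CPM. The level in library 1 was 10.2 times that in library 3, with an exact 95% interval of 1.32 to 461.8 that lies above 1 but rests on 7 counts against 1. Library 1 was at 2.47 times library 2 (95% interval 0.628 to 11.5) and library 2 at 4.15 times library 3 (95% interval 0.410 to 204.3), differences that were not detectable at this depth. In RefSeq the span of twi overlaps 3 protein-coding genes, CG9896, CG42741 and CG9897, and an antisense gene, CR42742. CG9896 had 3910, 6611 and 6488 counts and CG42741 had 180, 328 and 317, so reads of twi that fall in such overlaps could be assigned elsewhere.

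Over the 6 detected members, 11 of 18 ratios between libraries had a 95% interval that did not include 1. They comprised 5 of 6 between libraries 2 and 1, 4 of 6 between libraries 3 and 1, and 2 of 6 between libraries 2 and 3. The same count was not made over all genes, so nothing particular to the members is read from it. Counting error is only part of the spread between samples, so each gene was also set against genes of like abundance with the goodness-of-fit test of edgeR. This test asks whether a gene varies between the libraries by more than the fitted trend at its level. Across all genes, 216 of 10522 tested were called variable, which is 2.05%, at an adjusted p below 0.05.

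No member was called variable: 0 of the 6 that passed the filter on low counts. At an unadjusted p below 0.05 the count was also 0 of 6, where 5.39% of all genes tested passed. The smallest p belonged to hth, at 0.147 before and 0.99996 after Benjamini-Hochberg adjustment in the edgeR test. For exd, ap, nau, Mef2 and vg the unadjusted edgeR p was 0.545, 0.656, 0.849, 0.889 and 0.913. The fitted biological coefficient of variation was between 13.2% and 14.4% at the levels of these genes, which is the spread that the test takes as usual here. With 3 libraries of 1 group, a p that misses the threshold does not show that a gene is stable.

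The SD of log2(CPM + 0.5) over the libraries gives the same members on a common scale. It was 0.266 for hth, 0.154 for exd and 0.133 for ap, and it was 0.078 for nau, 0.066 for Mef2 and 0.054 for vg. Among the 500 genes tested that lay nearest in mean CPM to each member, the median SD was between 0.094 and 0.103. The values of hth, exd and ap thus lay above the median of their neighbours in level, and those of nau, Mef2 and vg below it. For hth, 9.40% of the 500 genes had a larger SD, and for vg 76.8% did.

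**Figure D2:**
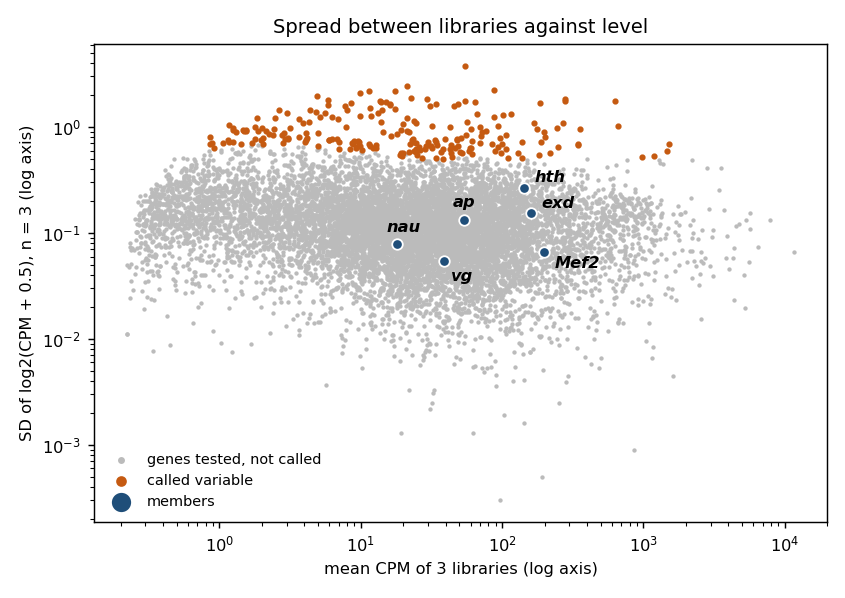
SD of log2(CPM + 0.5) over the 3 libraries against mean CPM, both on log axes, for all 10522 genes tested, with the 216 called variable in orange and the 6 detected members in blue. The members lie inside the cloud of genes that were not called, with hth highest at 0.266 and vg lowest at 0.054.

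Of the 6 detected members, 5 had their lowest value in library 1 and their highest in library 2, and the exception was nau. This order, lowest in library 1 and highest in library 2, is called the order of the members below. The same order was found in 31.6% of all genes tested, and the opposite order, highest in library 1 and lowest in library 2, in 34.9%. Both are thus common in these libraries, and no test was run on the members' count. On the log2(CPM + 0.5) scale, the median difference of library 2 minus library 1 was 0.18 over the 6 members and −0.02 over all genes tested, whose quartiles were −0.19 and 0.19. The difference was 0.53 for hth, 0.28 for exd and 0.24 for ap, which lie above the upper quartile, and 0.13 for Mef2, 0.10 for vg and −0.13 for nau, which lie between the quartiles.

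**Figure D3:**
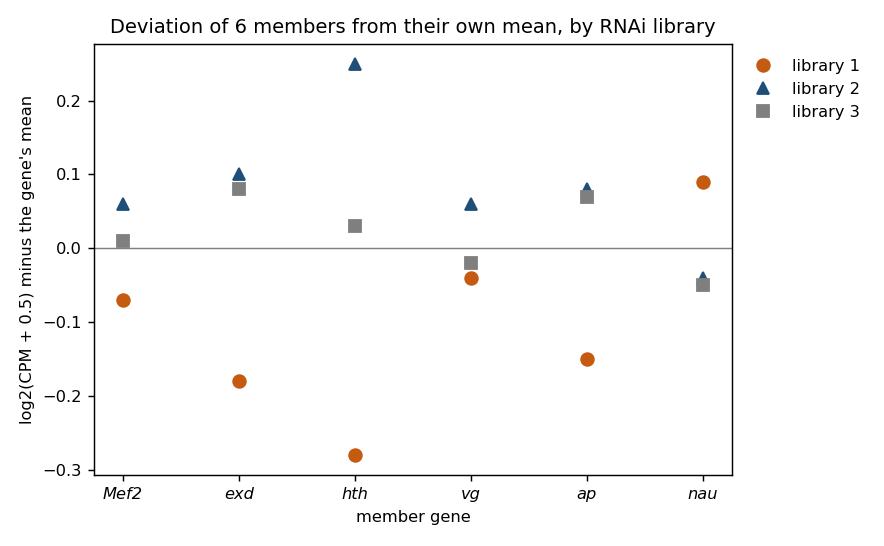
Deviation of the 6 detected members from their own mean over the libraries, on the log2(CPM + 0.5) scale, with 1 symbol per library. Library 1 is lowest for 5 genes and highest for nau, and the range is widest for hth, from −0.28 to 0.25.

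Many of these proteins act with a partner, so the genes of known partners and inhibitors were read from the same libraries. Scalloped (sd), the DNA-binding partner of Vestigial, stood at 102.7, 132.1 and 121.4 CPM in libraries 1, 2 and 3. Daughterless (da), the shared bHLH partner of Nautilus and Twist, stood at 59.3, 61.1 and 59.1 CPM, and extramacrochaetae (emc), an inhibitor of such bHLH pairs, at 79.4, 93.3 and 89.5 CPM. Both sd and emc were lowest in library 1, whereas da was nearly level. The LIM-binding cofactor gene Chip (Chi) stood at 33.8, 28.9 and 29.9 CPM, and Beadex (Bx), a LIM-only protein that competes with Apterous for Chip, at 28.6, 37.4 and 35.3 CPM. Library 1 was the highest for Chi and the lowest for Bx. The histone deacetylase gene HDAC4, whose mammalian relatives repress MEF2 proteins, stood at 113.5, 139.2 and 125.6 CPM, and Him, an inhibitor of Mef2 in muscle precursors, at 1.11, 0.847 and 0.930 CPM. Of these 7 genes, 0 were called variable by edgeR and 0 passed unadjusted, beside 2.05% and 5.39% of all genes. The order of the members was found in 4 and the opposite order in 2, beside 31.6% and 34.9% of all genes.

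A ratio of counts within a library does not depend on how libraries are scaled, though its absolute size reflects the lengths of both transcripts and is not a ratio of molecules. Ratios of other gene pairs were not computed. A difference beyond counting error in any ratio below is therefore not read as particular to these partners. The ratio of hth to exd counts was 0.825, 0.983 and 0.858 in libraries 1, 2 and 3, with a mean of 0.889 ± 0.0835. The 95% interval of library 2, at 0.954 to 1.01, did not overlap those of libraries 1 (0.792 to 0.860) and 3 (0.832 to 0.884), so the balance of this pair differed between libraries beyond counting error. The ratio of vg to sd counts was 0.369, 0.308 and 0.316, and the interval of library 1 (0.346 to 0.393) lay above those of libraries 2 (0.293 to 0.324) and 3 (0.300 to 0.332). The share of vg relative to its partner was thus higher in library 1 beyond counting error.

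The widest range among the 4 planned partner ratios was that of ap to its cofactor gene Chi. It was 1.43, 1.96 and 1.88 in libraries 1, 2 and 3, with a mean of 1.76 ± 0.291, and the highest was 1.38 times the lowest. The interval of library 1, at 1.32 to 1.53, lay below those of libraries 2 (1.84 to 2.09) and 3 (1.77 to 2.004). Against the competitor gene Bx, ap gave 1.68, 1.52 and 1.59, where all intervals overlap and the highest was 1.11 times the lowest. The ratio of nau to da was 0.327, 0.289 and 0.297, with overlapping intervals. The ratio of Mef2 to HDAC4 was 1.65, 1.48 and 1.57, and the intervals of libraries 1 (1.59 to 1.72) and 2 (1.43 to 1.52) did not overlap. Mef2 counts were 168.7, 242.7 and 212.3 times those of the low-level gene Him.

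**Figure D4:**
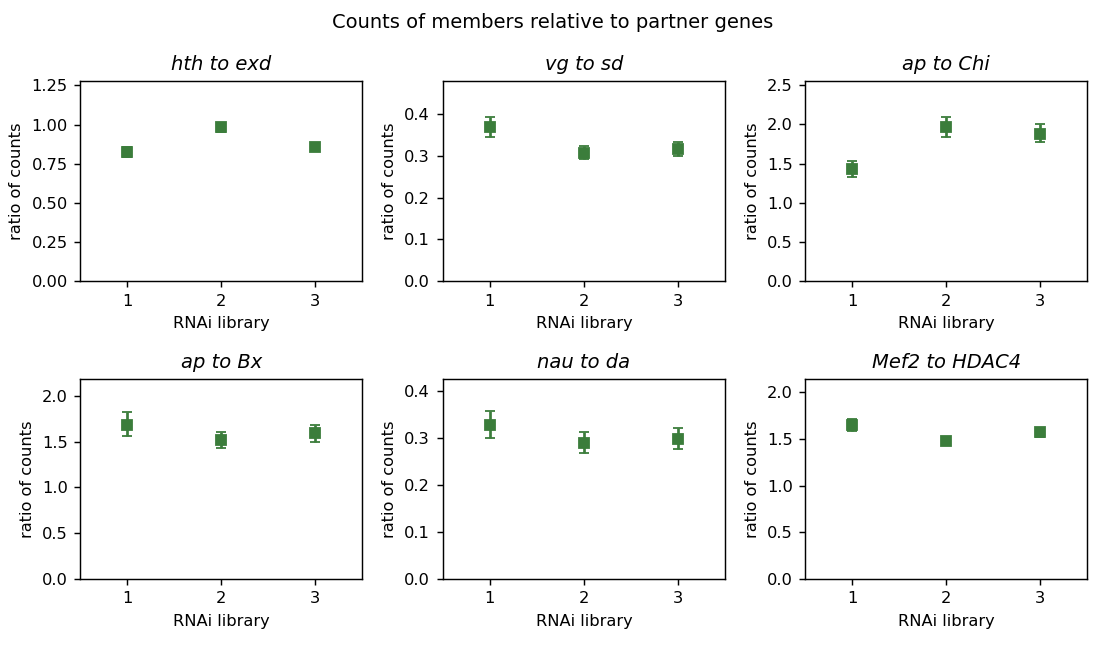
Ratio of the counts of a member to those of a partner or inhibitor gene in each RNAi library, on linear axes from 0; squares are single libraries and bars are exact 95% intervals for counting error. The ratio of ap to Chi is low in library 1 at 1.43, and that of hth to exd is high in library 2 at 0.983.

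Exd and Hth are cofactors of the Hox proteins, which set the identity of body segments. All 8 Hox genes on the list had counts, and 7 were detected in every library. By CPM, which is not corrected for length, the highest were Antp at 41.4 ± 5.40 CPM, Scr at 25.4 ± 2.71 CPM and Ubx at 16.8 ± 1.68 CPM. Antp, a homeotic gene of the thorax, stood at 35.5, 46.0 and 42.8 CPM in libraries 1, 2 and 3. All 7 Hox genes tested had the order of the members, beside 31.6% of all genes. The median log2 difference of the 7, library 2 minus library 1, was 0.27. None of these 7 was called variable by edgeR, beside 2.05% of all genes, and 0 passed at an unadjusted p below 0.05, beside 5.39%. The eighth, Dfd, a homeotic gene of the head, stood at 0.111, 1.16 and 0.570 CPM and was called only when no filter on low counts was used (edgeR adjusted p = 0.0182).

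Among the other muscle regulators, 19 of 24 matched genes were detected. Those with the highest means were the RNA-binding protein gene how at 171.8 ± 24.5 CPM, the zinc finger gene Cf2, which works with Mef2 on contractile protein genes, at 155.2 ± 10.7 CPM, and the cell cycle factor gene E2f at 114.3 ± 4.37 CPM. Of the 21 tested, 0 were called variable by edgeR and 2 passed unadjusted, beside 2.05% and 5.39% of all genes. The order of the members was found in 15 and the opposite order in 1, beside 31.6% and 34.9% of all genes. The median difference of the 21, library 2 minus library 1, was 0.20 on the log2 scale, close to the 0.18 of the members.

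The sarcomere list holds contractile and regulatory protein genes of the muscle fibre, which are the kind of gene that Mef2 switches on. Of 29 sarcomere genes tested, 9 had the order of the members and 11 the opposite order, close to the 31.6% and 34.9% of all genes. Their median log2 difference of library 2 minus library 1 was −0.04, near the −0.02 of all genes. The differences ran from −0.28 to 1.06, and 14 of the 29 genes were higher in library 2 than in library 1. The largest were those of Msp-300, sls and bt, at 1.06, 0.82 and 0.81, and each of these genes had the order of the members. The most counted were Mhc and Mf, whose levels are given above, and the projectin gene bt at 3520 ± 955 CPM. In edgeR, 3 of 29 passed at an unadjusted p below 0.05 and 1 sarcomere gene was called variable: Msp-300, a very large protein that links nuclei and mitochondria to the muscle cytoskeleton, at 772.8, 1615 and 1155 CPM in libraries 1, 2 and 3 (adjusted p = 0.0205). The call was lost without library 2 (adjusted p = 0.716) and without library 3 (adjusted p = 0.211) in edgeR, and with a common dispersion (adjusted p = 0.0718). Msp-300 had the order that 5 of the 6 detected members shared.

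Markers of some other cell types had the order of the members, as did 9 of the 29 sarcomere genes. All 10 neuron and glia markers were lowest in library 1 and highest in library 2, beside 31.6% of all genes. Their log2 differences of library 2 minus library 1 had a median of 0.52 and ran up to 1.17 for Syx1A. Those of Gs2, repo and nrv2, at 0.02, 0.14 and 0.18, lay between the quartiles of all genes. The summed level of the 10 markers was 2374, 2892 and 2704 CPM in libraries 1, 2 and 3. In this list 4 of 10 passed at an unadjusted p below 0.05 in edgeR, beside 5.39% of all genes. The 1 gene called variable, beside 2.05% of all genes, was the synaptic syntaxin gene Syx1A. It stood at 14.4, 33.1 and 23.6 CPM (edgeR adjusted p = 0.0136), and this call was lost without library 1, 2 or 3 (edgeR adjusted p = 0.235, 0.401 and 0.175). The 3 markers of that list with the highest means were Gs2, Eaat1 and Syt1, at 1049 ± 6.98, 465.2 ± 63.0 and 321.9 ± 77.7 CPM. All 7 epidermis, tendon and trachea markers had the same order, beside 31.6% of all genes. These 7 markers had a median difference of 0.50 and summed levels of 378.7, 529.9 and 467.6 CPM. Of these 7, 1 passed unadjusted in edgeR and 0 were called variable, beside 5.39% and 2.05% of all genes. The highest means of the 7 were those of Ddc, ple and vvl, at 122.2 ± 10.5, 113.4 ± 27.2 and 109.9 ± 18.9 CPM. The part of these tissues in the library differences of the members was not tested.

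Of 8 general muscle markers, 2 had the order of the members and 4 the opposite order, beside 31.6% and 34.9% of all genes, and nothing is read from counts this small. Their summed level was 17559, 18141 and 17919 CPM in libraries 1, 2 and 3. The 6 markers of fibrillar flight muscle, the type that exd and hth specify, summed to 2284, 2741 and 2567 CPM, with 3 of 6 in the order of the members. Their highest means were those of the kinase gene Strn-Mlck, the flight muscle troponin C gene TpnC4 and the flightin gene fln, at 1331 ± 192, 620.8 ± 43.7 and 330.1 ± 20.9 CPM. The zinc finger gene salm, which acts with exd and hth in this choice, stood at 34.5, 42.4 and 38.6 CPM, and the flight muscle actin gene Act88F at 112.5, 93.6 and 99.2 CPM, where reads shared with other actin genes make the level uncertain. The 2 tubular muscle markers, Act79B and TpnC41C, were both lower in library 2 than in library 1 and summed to 1246, 1120 and 1144 CPM. No marker of these 3 lists was called variable by edgeR, beside 2.05% of all genes.

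Of 5 gut markers, 3 had the opposite order to the members, beside 34.9% of all genes. In edgeR 1 of the 5 passed at an unadjusted p below 0.05, beside 5.39% of all genes. The median log2 difference of library 2 minus library 1 was −0.25. The highest means were those of the digestive enzyme genes alphaTry, Mal-A1 and betaTry, at 2595 ± 194, 2185 ± 325 and 1810 ± 193 CPM. Of 7 blood cell markers, 5 had the order of the members and 1 the opposite order, beside 31.6% and 34.9% of all genes. This list, with a median difference of 0.18, was led by crq, Hml and srp at 133.3 ± 6.99, 115.3 ± 25.6 and 90.9 ± 2.73 CPM. Fat body markers were divided, with 2 of 4 tested in each of the opposite orders, beside 31.6% and 34.9% of all genes. The fat body list was led by the lipid carrier gene Rfabg, the fatty acid synthase gene CG3523 and the lipid droplet gene Lsd-1 at 5717 ± 421, 2126 ± 102 and 613.1 ± 77.7 CPM. Of the muscle precursor list, twi is a member, and Notch (N), the zinc finger gene zfh1 and Him stood at 31.3 ± 6.88, 21.6 ± 4.80 and 0.963 ± 0.135 CPM. N and zfh1 are used in many tissues, so these levels do not mark precursors by themselves. The male germ line list was almost silent, with 1 of 6 markers detected, twe at 1.48 ± 0.114 CPM, and vas and Mst87F next at 0.511 ± 0.149 and 0.368 ± 0.361 CPM.

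**Figure D5:**
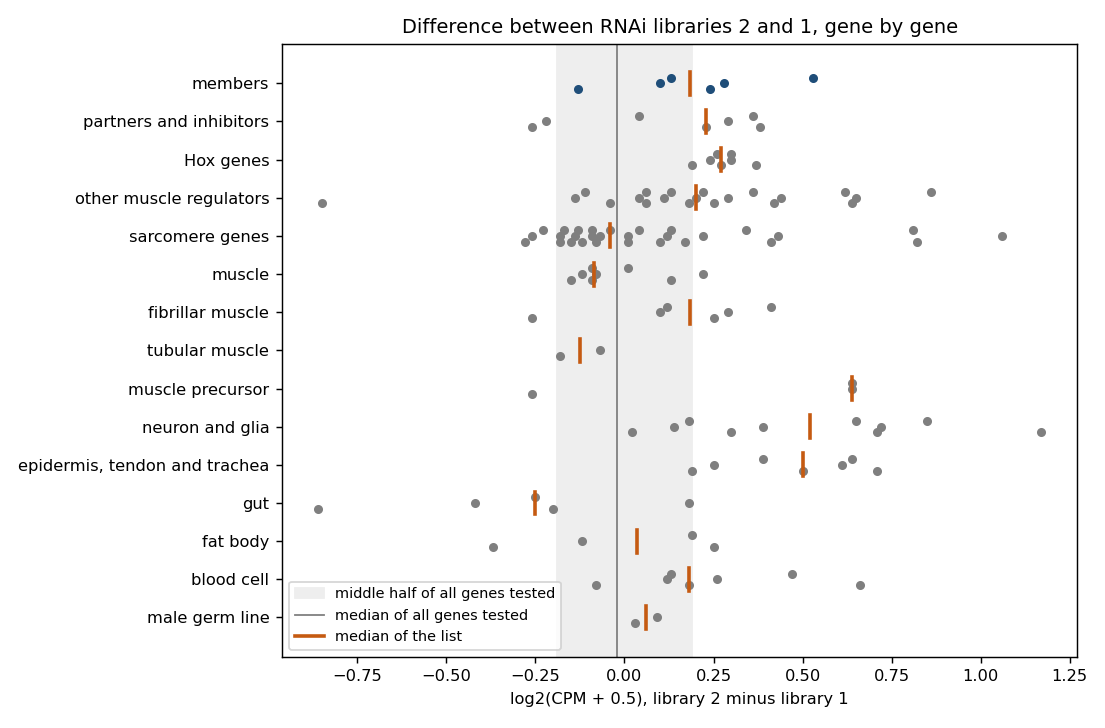
Difference of library 2 minus library 1 in log2(CPM + 0.5) for each gene tested, by gene list, with the median of each list in orange, the median of all genes tested as a grey line at −0.02 and the range between their quartiles shaded from −0.19 to 0.19. The 6 detected members, in blue, have a median of 0.18, below the 0.52 of neuron and glia markers and above the −0.09 of general muscle markers.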

How the data were processed

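The deposited files hold raw counts, as whole numbers beside gene symbols. The tools named, per the submitters' processing notes, are HTSeq, STAR, BWA and CASAVA 1.7, with no role for any, and the build named is mm9, a mouse build. The fly build, the annotation and the strand setting are not given in the sources used here, and coordinates are left out. Per the labels' protocols, libraries were made with a stranded TruSeq mRNA kit and sequenced as paired 100 base reads. In each file 5 summary rows name no gene and were left out. They held 21.98%, 25.15% and 24.78% of the listed total in libraries 1, 2 and 3. Another 6 columns of values, from samples of another series, were left out of every step.

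CPM was computed from the total of all gene counts. Exact Clopper-Pearson intervals (SciPy 1.17.1) are at 95% and, like limits at 3 counts, cover counting error only. Variability was tested with edgeR 4.0.16 in R 4.3.3 (intercept-only fit, TMM, filterByExpr, trended dispersion, chi-square goodness of fit, Benjamini-Hochberg over 10522 genes, threshold 0.05), since 1 group leaves no contrast. The script was tested on simulated data. Alternatives used DESeq2 1.42.0 size factors, no filter, a common dispersion, other scalings and each library left out.

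The members were taken by name as known regulators of fly muscle. Their list and 14 further lists were written with earlier results of these data known. Of 136 list entries 135 matched, 5 through older names in RefSeq (Release 6 plus ISO1 MT), and 1 (Limpet) did not. All members and partners are named, and of each other list the 3 highest means and any gene called variable. Dfd, salm, Act88F, Act79B, TpnC41C, sls, repo and nrv2 were added after their values were seen. The ratios of ap to Bx and of Mef2 to HDAC4 and Him were added beside the 4 planned ones, and twi to da was left out because of its low counts.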

Additional observations from a re-analysis of the deposited data

How the results depend on the processing

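The number of members called variable was 0 in edgeR under every setting tried, and 0 also passed unadjusted in each. The smallest unadjusted member p was 0.133 with DESeq2 size factors, 0.204 with a common dispersion and between 0.132 and 0.201 with a library left out, each for hth, and 0.0713 for twi, which enters only with no filter on low counts (adjusted p = 0.948). Over all genes the count was 216, against 213 with DESeq2 size factors, 262 with no filter and 244 with a common dispersion. Leaving out libraries 1, 2 and 3 in turn, which leaves fewer libraries, gave 108, 89 and 124, of which 106, 85 and 124 genes were among the 216. Mean CPM moved by less than 1 SD for all 7 members with TMM or DESeq2 scaling, and by more for 3 of 7 when the 10 most abundant genes left the totals, as a smaller total requires. No scaling changed which library was highest or lowest for any member. The scalings differed little between libraries, lying between 99.0% and 100.8% of the total with TMM or DESeq2. Without the 10 most abundant genes, between 93.64% and 93.66% of each total was left. Such factors leave little room to change an order, so this check is weak. Comparisons per transcript length were not run because no lengths were used here. With a library left out, the mean ratio of hth to exd counts was between 0.842 and 0.921, of vg to sd between 0.312 and 0.342, of ap to Chi between 1.65 and 1.92 and of nau to da between 0.293 and 0.312. The mean of twi was 0.0974 CPM, and 0.0489 CPM without library 1. Depth limits twi most. For nau no pair of libraries differed beyond counting error, though the interval of library 3 over library 1 only just included 1.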
